A study of Mus musculus with 8 samples.

Results

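The merged list of H3K56ac peaks from muscle stem cells (MuSCs) held 105600 intervals, of which 103492 lay on autosomes 1 to 19. Peaks at promoters of long intergenic non-coding RNAs (lincRNAs) were taken as the autosomal peaks within 1000 bp of a transcription start site (TSS) of a lincRNA gene and more than 3000 bp from every TSS of a protein-coding gene. Distances ran from the peak edge, genes and TSSs came from GENCODE vM21, and positions are given counting from 1 on mm10, the same build as GRCm38. In total 1512 peaks met both conditions, which is 1.46% of the autosomal peaks. They are called lincRNA promoter peaks here, and their strength did not enter the choice.

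To determine where H3K56ac, a histone H3 acetylated at lysine 56, lies in the MuSC genome and how it depends on the deacetylase SIRT6, the study sequenced chromatin immunoprecipitated with an H3K56ac antibody. The paper calls the control MuSCs of this assay wild type, and elsewhere gives control mice as carrying floxed Sirt6 without Cre. Sirt6mKO mice lacked Sirt6 in the muscle lineage, and both groups were on the C57BL/6 background. The labels describe 2 H3K56ac libraries and 2 input libraries per genotype, 8 in all, from MuSCs that were sorted from muscle and not cultured. In Sirt6mKO mice a Cre recombinase under control of Pax7 removed floxed Sirt6, so the deletion was present in the whole Pax7 lineage and not in adult MuSCs alone. The mice were adult males. The list held positions only, with no value per library, so depth, peak strength and the genotype a peak came from are unknown, and Sirt6mKO and Control were not compared. As a check of the cell type, all 10 MuSC genes examined, among them Pax7, Myf5, Myod1, Vcam1 and Calcr, had a peak within 1000 bp of a TSS. None of 4 haematopoietic genes did (Ptprc, Cd68, Itgam, Cd3e), while 3 of 4 endothelial genes (Pecam1, Kdr, Tek) and 3 of 4 genes of fibro-adipogenic cells (Pdgfra, Dpp4, Thy1) did. Such a peak was present at 66.8% of all autosomal coding genes, so 3 of 4 is near that background. The contribution of such cells to the lincRNA promoter peaks was not tested.

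LincRNAs are transcribed by RNA polymerase II, spliced and polyadenylated like mRNAs, but they do not encode proteins, and most lie between coding genes. Some act in the nucleus as scaffolds, some are host transcripts from which miRNAs or snoRNAs are cut, and many are transcribed from regulatory elements of a neighbouring gene. Histone acetylation loosens the wrapping of DNA and is found at active promoters and enhancers. MuSCs, also called satellite cells, are the resting stem cells of skeletal muscle, and they rely on the transcription factor PAX7.

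The promoters below show the range of sequence under the lincRNA promoter peaks. Each runs 5′ to 3′ along the strand of the gene, from 250 bases before the annotated TSS to 50 bases from the TSS on, and was read from the RefSeq sequence of GRCm38.p6. Capitals mark matches, on either strand, to the TATA box TATAAA, to the CCAAT box, to the GC box GGGCGG, to the E-box CAGCTG that myogenic factors bind, to the AP-1 motif TGANTCA and to the E-box CACGTG that MYC and related factors bind. C230057A21Rik and Gm37855 carried the widest peaks, Malat1 is the lincRNA of the known list with the widest peak, Lncpint and D730003I15Rik were rich in CpG, and 1700025L06Rik is the lincRNA whose nearest coding gene was Myod1.
C230057A21Rik (chr3:8736151-8736450, minus strand): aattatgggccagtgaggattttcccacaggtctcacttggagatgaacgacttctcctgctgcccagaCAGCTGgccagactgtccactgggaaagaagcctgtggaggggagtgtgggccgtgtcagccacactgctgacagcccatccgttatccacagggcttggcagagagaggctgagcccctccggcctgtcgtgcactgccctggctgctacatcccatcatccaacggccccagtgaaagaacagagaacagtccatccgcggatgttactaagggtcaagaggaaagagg
Gm37855 (chr3:87157443-87157742, plus strand): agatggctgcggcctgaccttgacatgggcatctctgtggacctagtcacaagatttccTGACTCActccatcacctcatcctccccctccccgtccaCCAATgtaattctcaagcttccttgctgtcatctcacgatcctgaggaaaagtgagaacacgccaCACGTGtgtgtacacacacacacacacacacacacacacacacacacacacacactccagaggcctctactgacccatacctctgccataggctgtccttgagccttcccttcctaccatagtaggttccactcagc
Malat1 (chr19:5802623-5802922, minus strand): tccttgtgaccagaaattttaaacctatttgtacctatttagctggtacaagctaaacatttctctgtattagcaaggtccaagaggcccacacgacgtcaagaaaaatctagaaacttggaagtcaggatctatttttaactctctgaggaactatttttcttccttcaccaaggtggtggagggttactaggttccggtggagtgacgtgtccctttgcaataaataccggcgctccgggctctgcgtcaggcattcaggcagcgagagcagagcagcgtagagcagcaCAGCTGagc
Lncpint (chr6:31218425-31218724, minus strand): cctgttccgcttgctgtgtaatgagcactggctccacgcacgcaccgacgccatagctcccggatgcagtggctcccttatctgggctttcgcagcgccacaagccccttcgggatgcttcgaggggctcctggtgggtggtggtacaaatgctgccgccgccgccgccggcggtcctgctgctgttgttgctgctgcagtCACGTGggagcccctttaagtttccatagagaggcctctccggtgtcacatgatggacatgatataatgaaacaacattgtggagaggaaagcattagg
D730003I15Rik (chr1:191224224-191224523, plus strand): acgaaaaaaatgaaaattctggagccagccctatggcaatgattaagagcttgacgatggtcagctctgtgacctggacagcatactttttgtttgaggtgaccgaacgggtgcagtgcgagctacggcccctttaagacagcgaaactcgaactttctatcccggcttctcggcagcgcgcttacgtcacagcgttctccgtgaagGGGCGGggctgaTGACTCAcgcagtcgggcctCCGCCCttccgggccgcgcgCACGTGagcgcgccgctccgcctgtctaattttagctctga
1700025L06Rik (chr7:46349324-46349623, minus strand): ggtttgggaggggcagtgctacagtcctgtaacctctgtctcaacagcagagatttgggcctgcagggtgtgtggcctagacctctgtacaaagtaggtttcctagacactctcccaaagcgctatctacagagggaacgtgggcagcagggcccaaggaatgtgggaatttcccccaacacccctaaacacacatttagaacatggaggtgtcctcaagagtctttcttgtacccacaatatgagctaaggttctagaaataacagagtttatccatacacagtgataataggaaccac
The CpG dinucleotides in these 300 bases numbered 28 in D730003I15Rik and 18 in Lncpint, against 10 in Malat1, 8 in C230057A21Rik, 5 in Gm37855 and 2 in 1700025L06Rik. D730003I15Rik is the lincRNA next to Atf3, a stress response transcription factor. Its promoter held GGGCGG in both orientations, TGANTCA and CACGTG, while 1700025L06Rik held none of the 6 motifs in this window.

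A second set of sequences comes from the miRNAs that lincRNAs with a promoter peak host. They are shown because 2 of them, miR-206 and miR-133b, belong to the muscle miRNAs, and because several hosts carry miRNAs of the same seed family. The mature sequences are those of RefSeq on GRCm38.p6, 5′ to 3′, and capitals mark the seed, bases 2 to 8, which pairs with target mRNAs. Mir206 and Mir133b lie in Gm28653, Mir17, Mir20a, Mir19a and Mir19b-1 in Mir17hg, Mirlet7a-1, Mirlet7d and Mirlet7f-1 in 6720427I07Rik, and Mir155 in Mir155hg.
miR-206-3p (chr1:20679055-20679076, plus strand): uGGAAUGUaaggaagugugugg
miR-133b-3p (chr1:20682834-20682855, plus strand): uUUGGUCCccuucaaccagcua
miR-17-5p (chr14:115043684-115043706, plus strand): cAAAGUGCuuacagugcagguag
miR-20a-5p (chr14:115044183-115044205, plus strand): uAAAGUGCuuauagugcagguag
miR-19a-3p (chr14:115044048-115044070, plus strand): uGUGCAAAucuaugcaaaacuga
miR-19b-3p (chr14:115044358-115044380, plus strand): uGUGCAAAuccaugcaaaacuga
let-7a-5p (chr13:48538239-48538260, minus strand): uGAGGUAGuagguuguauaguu
let-7d-5p (chr13:48536078-48536099, minus strand): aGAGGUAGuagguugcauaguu
let-7f-5p (chr13:48537889-48537910, minus strand): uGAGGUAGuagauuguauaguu
miR-155-5p (chr16:84714143-84714165, plus strand): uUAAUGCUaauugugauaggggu
The seeds of miR-206-3p and miR-133b-3p differed although both precursors came from 1 host gene. In Mir17hg, miR-17-5p shared its seed with miR-20a-5p and miR-19a-3p with miR-19b-3p, and the 3 let-7 miRNAs of 6720427I07Rik shared 1 seed.

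Which share of lincRNA TSSs lay in H3K56ac was first asked of all lincRNA genes, without reference to the choice of peaks. A TSS was called eligible if it was more than 4000 bp from every coding TSS, and 4614 of the 5209 autosomal lincRNA genes had such a TSS. At the eligible TSS nearest the 5′ end of each gene, 17.6% of the TSSs (814 of 4614, Wilson 95% interval 16.6 to 18.8%) lay inside a peak. At points 20 kb before the TSS the share was 8.11% (7.32 to 8.98%), and 20 kb after it 7.60% (6.84 to 8.43%), where points within 4000 bp of a coding TSS were left out. The TSS was thus covered 2.17 and 2.32 times as often as its flanks, a difference of 9.53 points from the 5′ flank (Newcombe 95% interval 8.15 to 10.9). The intervals here and below cover counting error only, since genes and peaks are not replicates of the mice. On bases outside annotated repeats the same shares were 20.4% at the TSS, 9.76% before it and 8.77% after it.

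The excess at the TSS varied with CpG content, given as observed over expected CpG in the 1000 bp centred on the TSS. LincRNAs with a ratio of 0.4 and over had 39.1% of 601 TSSs inside a peak against 8.40% of points 20 kb before. Those between 0.2 and 0.4 had 19.1% of 1976 against 9.15%. Below 0.2 the share was 9.92% of 2037 TSSs against 7.04%, a difference of 2.88 points (1.13 to 4.62). The 3 classes thus stood apart at the TSS, with intervals that did not overlap, while 20 kb away all 3 lay between 6.57 and 9.15%.

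**Figure D1:**
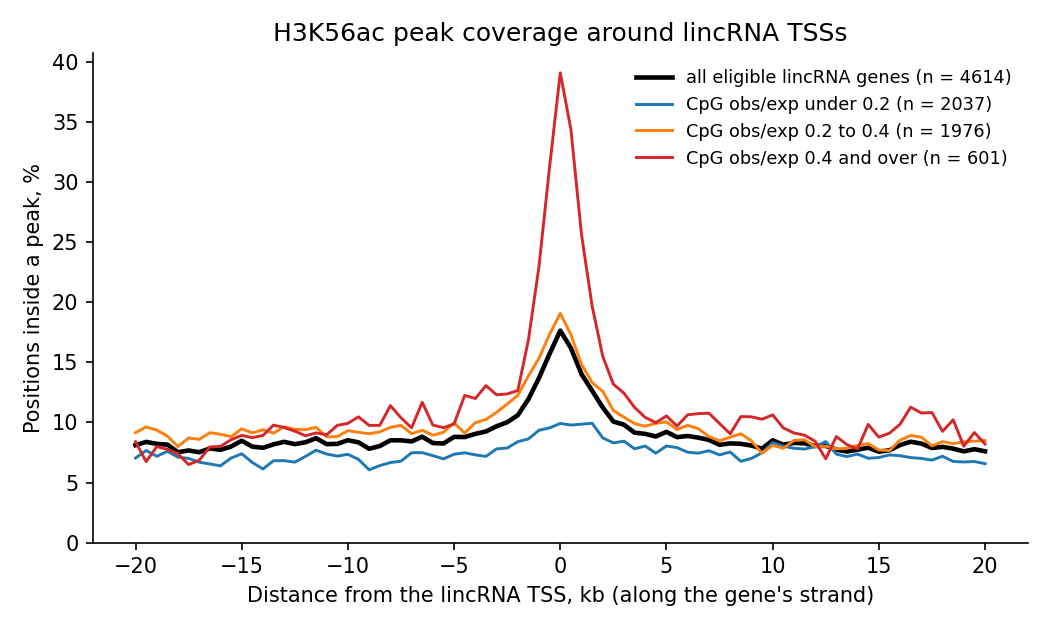
Share of positions inside an H3K56ac peak (y axis, percent) by distance from the TSS of eligible lincRNA genes (x axis, kb along the strand of the gene, in steps of 500 bp), for all genes and for 3 classes of observed/expected CpG; n is the number of TSSs. The line for all genes rises from about 8% in the flanks to 17.6% at the TSS, and the class of 0.4 and over reaches 39.1%.

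Of the 4614 eligible lincRNA genes, 1151 had a lincRNA promoter peak, which is 24.9% (23.7 to 26.2%). A further 27 had a peak within 1000 bp that lay within 3000 bp of a coding TSS, and 3436 (74.5%) had none. Among 20807 autosomal protein-coding genes, 66.8% had a peak within 1000 bp of a TSS. Through TSSs that were not eligible the peaks reached 6 further genes, so that 1157 lincRNA genes had a lincRNA promoter peak. Of these, 832 had 1 peak, 257 had 2, 55 had 3, 8 had 4, 4 had 5 and 1 had 6. The condition on coding TSSs removed 519 of the 2031 autosomal peaks near lincRNA TSSs, and 385 of those lay over a coding TSS.

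LincRNAs known by function were mostly marked. From a list of such genes 21 were annotated as lincRNA and eligible, and 18 of them had a lincRNA promoter peak (85.7%, against 24.9% of all eligible genes). The list holds lincRNAs chosen because they are well studied, and it was drawn up with earlier results of these data known. Several of its genes have many TSSs. The share of eligible genes with a promoter peak was 22.8% with 1 eligible TSS and 44.7% with 5 or more. The part of these in the difference was not tested. Of the nuclear RNAs, Malat1, a component of nuclear speckles, lay under a single peak of 19678 bp that began 11487 bp before its 5′ end and ended 8190 bp after it. Neat1, the scaffold of paraspeckles, had a peak of 9555 bp over its 5′ end, one of 7070 bp that ended 441 bp before it, and another of 600 bp inside the gene. Pvt1, the neighbour of Myc, had the most peaks of any lincRNA, 6 from 396 to 8526 bp, and the widest of them covered its 5′ end. Lncpint, a transcript induced by p53, had 4 peaks of 2594, 5622, 11089 and 15865 bp.

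At imprinted and developmental lincRNAs the widest peak had 4202 bp. H19 had peaks of 1756 and 429 bp, the wider of which began 53 bp after the 5′ end. At Meg3 a peak of 859 bp ended 65 bp before the 5′ end and another of 575 bp began 6 bp after it. Hotair in the HoxC cluster carried that peak over its TSS, and Halr1 in the HoxA cluster had one of 882 bp that ended 420 bp before it. Trp53cor1 (lincRNA-p21), next to the cell cycle inhibitor gene Cdkn1a, had peaks of 1746 and 1213 bp, each over a TSS. Lockd, next to the cell cycle inhibitor gene Cdkn1b, had peaks of 715 and 468 bp that it shared with Gm44238 on the other strand.

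LincRNAs described in heart and muscle were among the marked genes. Gm28653, the host of Mir206 and Mir133b, had peaks of 9112, 1204 and 1536 bp, and the 9112 bp peak ran from 2456 bp before its 5′ end to 6655 bp after it. The 1536 bp peak held the whole of mature miR-206-3p. The cardiac lincRNAs Carmn, Bvht and Chaer1 had peaks of 8806, 7846 and 3143 bp, each over the 5′ end. Snhg12, a snoRNA host, had peaks of 4217 and 648 bp, Mir17hg 1 of 4123 bp, Mir155hg 1 of 1734 bp and Rmst 1 of 924 bp. No peak lay within 1000 bp of Mirg or Miat. Charme, Myolinc, Munc, Dum and Lncmyod of the list were not found by name among autosomal genes and were not examined. Epb41l4aos had a peak over its TSS that was 2970 bp from the TSS of Epb41l4a and so was not counted.

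**Figure D2:**
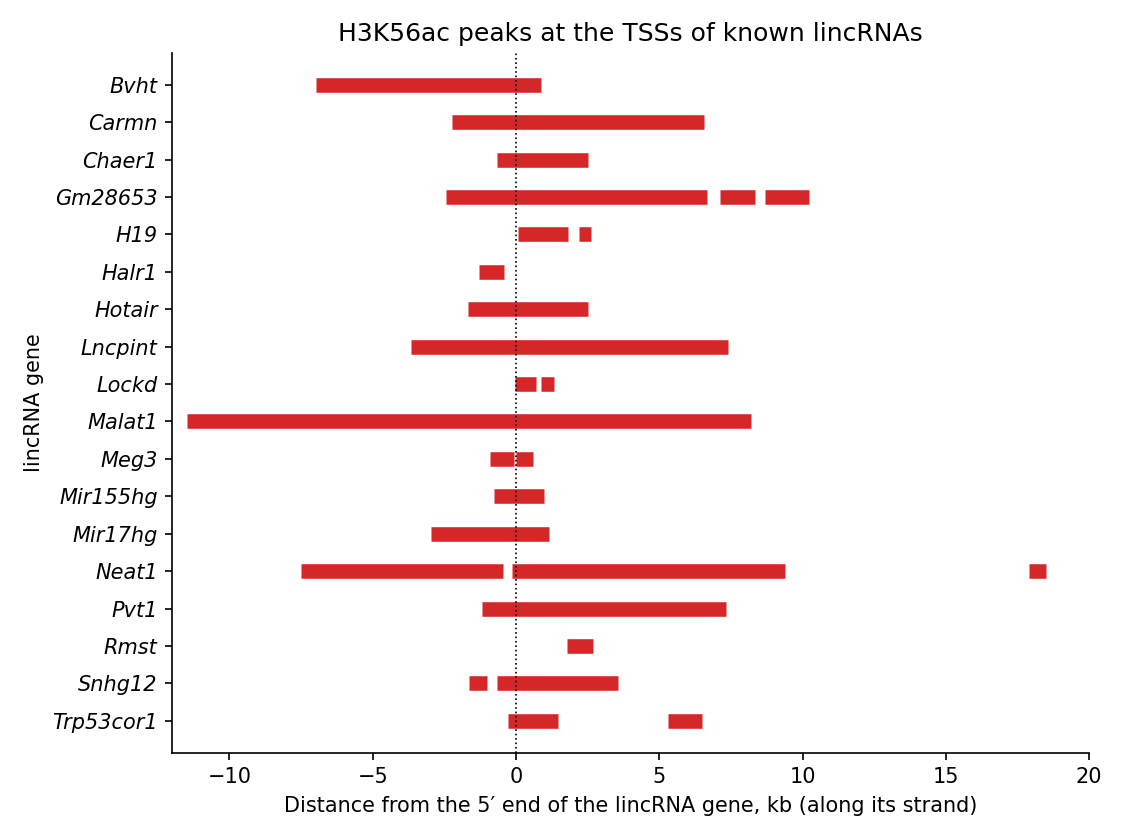
LincRNAs known by function with a lincRNA promoter peak (y axis, 18 genes) and their peaks (bars) by distance from the 5′ end of the gene (x axis, kb along its strand). The bars at Malat1 (19678 bp) and Lncpint (11089 bp) are long while those at Lockd, Halr1 and Rmst are under 1000 bp, and peaks farther than the axis inside Lncpint and Pvt1 are not drawn.

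Width at lincRNA promoters had a median of 1411 bp (order-statistic 95% interval 1309 to 1543 bp, n = 1512), with quartiles of 759 and 2955 bp and a range of 166 to 27890 bp. Coding promoter peaks, those within 1000 bp of a coding TSS, were wider, with a median of 2552 bp (2509 to 2593 bp, n = 19091). Peaks away from both kinds of TSS, called other peaks below, were narrower, with a median of 872 bp (867 to 878 bp, n = 74626). The median was 0.553 times that of coding promoter peaks and 1.62 times that of other peaks. Widths of 5 kb and more were found in 11.0% of lincRNA promoter peaks (167), 16.7% of coding promoter peaks and 3.74% of other peaks. Together the lincRNA promoter peaks covered 3.61 Mb, 1.99% of the covered autosomal length.

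A wide peak reaches a TSS from farther away, so peaks chosen by distance are wide for that reason too. Weighting each of the other peaks by its width plus 2000 bp, the stretch from which it would be within 1000 bp of a point, raised their median to 1172 bp, and the ratio fell to 1.20. For the 861 lincRNA promoter peaks (56.9%) that lay over a TSS, the median was 2071 bp, and other peaks weighted by their width had a median of 2077 bp, a ratio of 0.997. Over their TSSs, coding promoter peaks had a median of 3143 bp, so that the lincRNA peaks were 0.659 times as wide. The 651 lincRNA peaks beside a TSS had a median of 869 bp and coding promoter peaks beside a TSS one of 870 bp. The share over the TSS, 56.9%, was below the 76.4% of coding promoter peaks (difference -19.4 points, -22.0 to -16.9). It was above the 41.9% that the widths of other peaks would give around arbitrary points. That value holds for single points, whereas a lincRNA gene can have several TSSs that a peak may cover. The part of this in the difference was not tested.

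**Figure D3:**
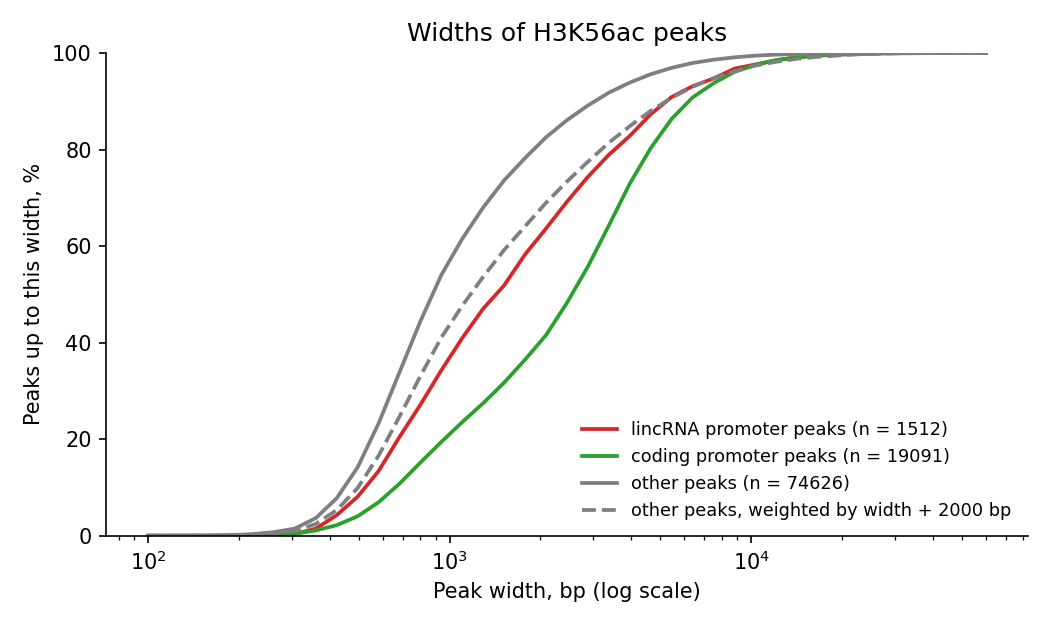
Cumulative share of peaks (y axis, percent) up to a given width (x axis, bp, log scale) for lincRNA promoter peaks, coding promoter peaks and other peaks, with other peaks also weighted by width plus 2000 bp (dashed line). The lincRNA line, with a median of 1411 bp, runs close to the dashed line (1172 bp) and between those of other peaks (872 bp) and coding promoter peaks (2552 bp).

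The widest lincRNA promoter peak, of 27890 bp, covered C230057A21Rik at chr3:8709256-8737145, and the nearest coding gene was Hey1, a Notch target. The next, of 26138 bp, lay inside the coding gene Kirrel and covered Gm37855 (chr3:87143234-87169371). Peaks of 21139 bp at Gm20755, 20262 bp at AC132455.3 (nearest coding gene Zfp36l2) and 19678 bp at Malat1 followed. Those at Gm32914 (18638 bp), near Sspn, which encodes sarcospan of the dystrophin complex, A230028O05Rik (16014 bp, near Lpp), Lncpint (15865 bp) and BC028471 (15511 bp, near Medag) also covered a TSS. Among the 10 widest only the peak of 16947 bp at Gm35333 lay beside the TSS. At the other end, 127 peaks (8.40%) were narrower than 500 bp, against 14.6% of other peaks.

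Among genes with a single TSS, peak coverage was symmetrical about lincRNA TSSs and skewed downstream at coding TSSs. In lincRNA genes with a single TSS and a promoter peak (n = 828), the position 1000 bp before the TSS was inside a peak in 56.4% and the position 1000 bp after it in 57.2% (intervals 53.0 to 59.7 and 53.9 to 60.6%). In coding genes with a single TSS and a peak (n = 1668, of 13901 coding genes with a peak) these shares were 61.8% and 74.5% (59.5 to 64.1 and 72.3 to 76.5%). At 10 kb on either side, 24.8 and 25.2% of the lincRNA positions were inside a peak and 16.5 and 16.7% of the coding ones. Of the lincRNA promoter peaks that missed the TSS, in genes with any number of TSSs, 48.7% lay downstream. At coding TSSs 42.7% did, so that most peaks beside a coding TSS lay upstream (difference between the shares 5.96 points, 1.87 to 10.1). Only 56 peaks were within 1000 bp of 2 or more lincRNA genes, and 46 of them served both strands, as at Lockd and Gm44238.

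CpG content was higher by median at lincRNA genes with a promoter peak, but most marked lincRNA promoters were poor in CpG. Except in the shares by CpG class, each gene gave 1 eligible TSS here and for motifs and repeats below. With a peak this was the TSS nearest the peak centre, and without a peak the TSS nearest the 5′ end. CpG-rich promoters, with observed/expected CpG of at least 0.6 and GC of at least 50%, made up 6.43% of the 1151 genes with a peak and 1.01% of the 3463 without (difference 5.42 points, 4.08 to 7.01). With the 5′ end of every gene as its only TSS the difference was 5.71 points (4.32 to 7.38). Of coding genes with a peak within 1000 bp of the 5′ TSS, 68.3% had such a promoter. The median observed/expected CpG was 0.270 with a peak and 0.202 without (intervals 0.261 to 0.282 and 0.197 to 0.206). The values themselves overlapped, with quartiles of 0.192 and 0.389 with a peak and 0.133 and 0.290 without. By CpG class all 6338 eligible lincRNA TSSs were counted, so genes with several TSSs entered several times, while each coding gene entered once. The share of eligible lincRNA TSSs with a promoter peak was 9.28% below a ratio of 0.1, 16.4% from 0.1 to 0.2, 27.0% from 0.2 to 0.3, 29.5% from 0.3 to 0.4, 42.7% from 0.4 to 0.6 and 63.7% above. Coding 5′ TSSs went from 4.53 to 94.0% over the same classes. At equal CpG content the order of the gene types was not constant. Below 0.1 the lincRNA share was the higher, from 0.2 to 0.3 the shares were 27.0 and 28.7% with overlapping intervals, and from 0.4 to 0.6 they were 42.7 and 76.4%.

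**Figure D4:**
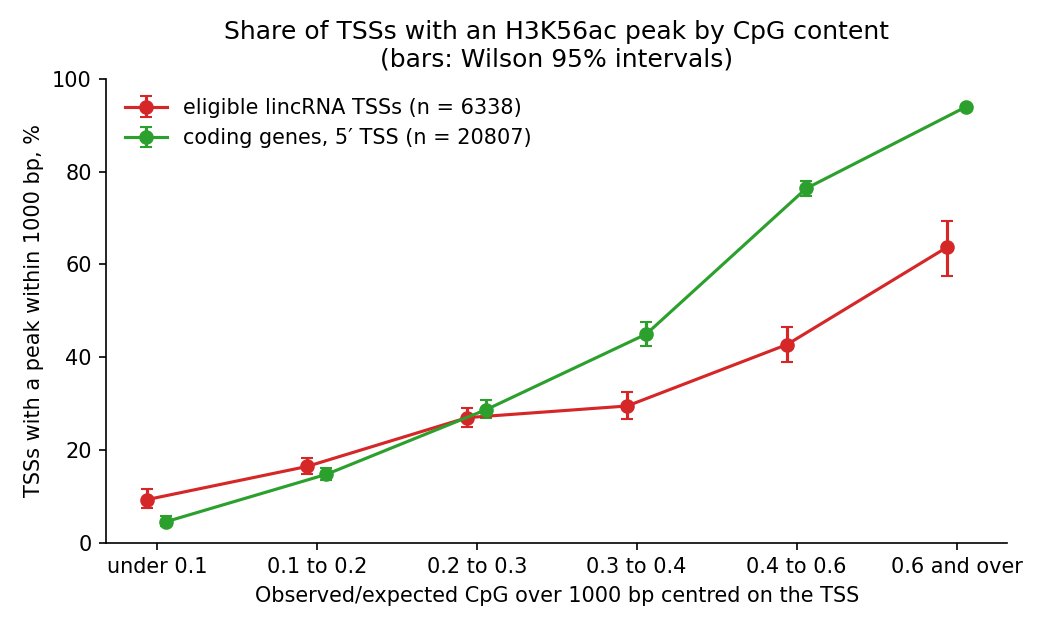
Share of TSSs with a peak (y axis, percent) by observed/expected CpG around the TSS (x axis, 6 classes), for eligible lincRNA TSSs with a lincRNA promoter peak and for coding 5′ TSSs with any peak within 1000 bp; bars are Wilson 95% intervals. The lincRNA points rise from 9.28 to 63.7% and the coding points from 4.53 to 94.0%, crossing between 0.1 and 0.3.

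Peaks at CpG-rich lincRNA TSSs were wider and more often over the TSS. Their median width was 2368 bp (2085 to 2901 bp, n = 90) against 1347 bp (1251 to 1453 bp, n = 1422) at other lincRNA TSSs, and 81.1 against 55.4% of them lay over the TSS. Of the 6 motifs, GGGCGG differed most. It occurred within 250 bases before to 50 bases after the TSS in 15.6% of lincRNA promoters with a peak, 5.75% of those without and 43.7% of coding promoters (difference with minus without 9.81 points, 7.66 to 12.1). CAGCTG was found in 21.9, 17.6 and 15.5%, and CACGTG in 7.99, 5.02 and 7.82%. TATAAA, in 14.3, 18.4 and 12.7%, and CCAAT, in 33.0, 39.6 and 38.6%, were less frequent with a peak than without. TGANTCA was in 11.9 and 10.7% of lincRNA promoters, a difference of 1.19 points whose interval included 0 (-0.86 to 3.42), and in 6.88% of coding promoters. A match is a stretch of letters and not a measured binding site, and the part of base composition, which moved with the peak (median GC 48.1 against 45.1%), was not tested.

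TSSs of lincRNAs without a peak lay more often in repeats. The TSS base was soft-masked as a repeat in 11.8% of lincRNAs with a peak and 25.0% of those without (difference -13.2 points, -15.4 to -10.7). Of eligible genes with a masked TSS 13.6% had a promoter peak, and of those with an unmasked TSS 28.1%. Reads were kept only if they aligned to a single place, which lowers the chance of a peak in repeats. Its part in the difference was not tested, nor was that of the choice of TSS.

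In their surroundings, lincRNAs with a promoter peak had more other peaks than lincRNAs without one. Closely spaced peaks were not particular to them. Another peak lay less than 1 kb away for 68.1% of lincRNA promoter peaks and 66.4% of other peaks. Over 2 to 50 kb the surroundings were counted for lincRNA TSSs only. A median of 7 other peaks (quartiles 3 and 14) lay between 2 and 50 kb from the TSS, against 1 (quartiles 0 and 4) for lincRNAs without a promoter peak. Of the 1661 eligible lincRNAs with no other peak in that range 5.72% had a promoter peak, and the share was 21.0% with 1 to 4, 37.9% with 5 to 9, 56.6% with 10 to 19 and 83.0% with 20 or more. The difference in CpG-rich promoters was still present within the sparser classes. It was 6.35 points (2.54 to 13.4) with no other peak, 9.89 points (6.78 to 13.9) with 1 to 4 and 5.63 points (3.06 to 9.08) with 5 to 9, whereas with 10 to 19 it was 2.01 points with an interval that included 0 (-0.79 to 4.73). In the densest class, where only 26 genes had no promoter peak, it was -0.70 points (-15.9 to 4.94).

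The nearest coding gene of a marked lincRNA usually had a promoter peak as well. Neighbours were taken by the distance between TSSs, and 85.5% of the neighbours of lincRNAs with a promoter peak (984 of 1151) had a peak within 1000 bp of a TSS, against 74.6% (2584 of 3463) for lincRNAs without, a difference of 10.9 points (8.29 to 13.3). Within classes of peak density this difference was found only where no other peak lay 2 to 50 kb away (76.8 against 62.4%, difference 14.5 points, 4.74 to 22.2). With 1 to 4 other peaks the shares were 77.6 and 81.5%, with 5 to 9 they were 88.2 and 89.6%, with 10 to 19 both were 89.6%, and with 20 or more they were 93.7 and 88.5%, and each interval of the difference included 0. Averaged over the classes, weighted by the lincRNAs with a peak, the difference was 0.41 points. Other peaks away from TSSs, taken 1 by 1, had a marked nearest coding gene in 91.9%, and lincRNA promoter peaks in 86.2% (difference -5.63 points, -7.47 to -3.97).

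**Figure D5:**
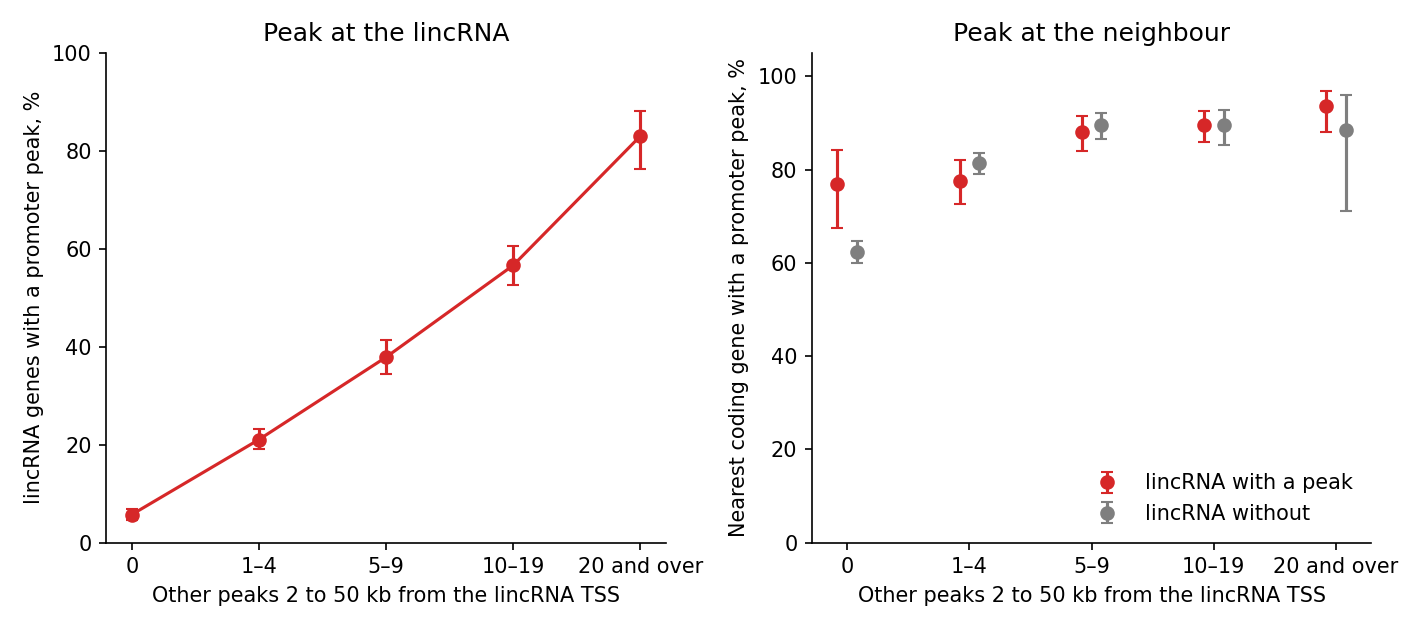
Left, share of eligible lincRNA genes with a promoter peak (y axis, percent) by the number of other peaks 2 to 50 kb from the TSS (x axis, 5 classes). Right, share of nearest coding genes with a promoter peak for lincRNAs with a promoter peak and without, in the same classes; bars are Wilson 95% intervals. The left share rises from 5.72 to 83.0%, and on the right the pair of points overlap in every class except that with no other peak.

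By median, marked lincRNAs were nearer to coding TSSs than lincRNAs without a peak, while lincRNA promoter peaks were farther from them than other peaks. From the lincRNA TSS, the median distance to the nearest coding TSS was 51882 bp (47972 to 56243 bp) with a promoter peak. Without a promoter peak it was 77923 bp (72700 to 83042 bp). The share of lincRNAs with a promoter peak was 27.0% at 4 to 20 kb and 32.1% at 20 to 50 kb. It was 26.6% at 50 to 100 kb, 26.7% at 100 to 200 kb and 13.6% over 200 kb. These distances were not set against the number of other peaks around. Between a peak and the nearest coding TSS the median gap was 50082 bp (quartiles 22540 and 126320 bp), against 26051 bp for other peaks. The choice of peaks at lincRNA TSSs, most of which lie between coding genes, favours a longer gap. The longer gap is thus not a result about H3K56ac. In all 161 peaks (10.6%) lay between 3 and 10 kb from a coding TSS, 595 (39.4%) between 10 and 50 kb, 295 (19.5%) between 50 and 100 kb and 461 (30.5%) farther away. Relative to the nearest coding gene, 49.2% of lincRNAs with a peak were on the same strand, 30.9% divergent and 19.9% convergent, and of those without a peak 49.4, 30.9 and 19.7%. Only 73 peaks (4.83%) overlapped the body of a coding gene, against 54.9% of other peaks. The choice of gene type favours such a low share, since antisense and sense-intronic genes are annotated as separate types. It is thus not a result about H3K56ac. In 52 of the 73 the lincRNA was antisense to that gene.

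Genes of muscle stem cell biology were among the neighbours. From a list of 93 such coding genes, 26 (28.0%) were the nearest coding gene of a lincRNA with a promoter peak. Among all 20807 autosomal coding genes, 856 were. Of the 95 eligible lincRNAs nearest to a listed gene 43 had a promoter peak (45.3%), beside 24.9% of all eligible lincRNAs. The 43 shared 26 neighbours, and the list was chosen with earlier results of these data known. The number of other peaks around, with which the share of marked lincRNAs rose, was not taken into account here. Among myogenic regulators, 1700025L06Rik lay 27101 bp from the TSS of Myod1, the myogenic determination factor, with peaks of 808 and 1583 bp. C130071C03Rik, which hosts Mir9-2, and Gm26803 lay on opposite strands 79678 and 76694 bp from Mef2c, with narrow peaks of 522 and 846 bp. Gm28163 with a peak of 741 bp lay 6755 bp from Eya2, a transcriptional cofactor in muscle development, and Gm33926 71075 bp from Mef2a. Near surface proteins of MuSCs, Gm26544 lay 20791 bp from Vcam1 with peaks of 707 and 2190 bp, and Gm32250 56350 bp from Cd34 with a peak of 5096 bp.

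Signalling genes were the nearest coding genes of several marked lincRNAs, often at a distance of over 50 kb. In the Notch pathway, C230057A21Rik lay 68944 bp from the target gene Hey1, and 4632428C04Rik (2257 bp peak) and Gm1968 (widest peak 865 bp) lay 55717 and 85200 bp from the target gene Hes1. The ligand gene Jag1 was the nearest coding gene of Gm14055 and Gm14064, at 171859 and 546791 bp, and the ligand gene Dll1 that of Gm35576 and Gm5091, at 83032 and 120473 bp. Gm42745 lay 94378 bp from Rbpj, the DNA-binding partner of Notch. Bmp4, a growth factor gene, was the nearest coding gene of 4 marked lincRNAs, Gm15221, Gm48911, Gm48912 and E130120K24Rik, at 46186, 72851, 125773 and 165634 bp, with widest peaks of 2818, 883, 5938 and 6185 bp. Immediate early and stress genes were the neighbours of D730003I15Rik (Atf3, 6435 bp away, peak of 3640 bp), Gm32296 and Gm40477 (Fos, 54687 and 37641 bp), Gm26802 (Fosb, 8830 bp), Gm12708 (Jun, 141091 bp), and Gm12506, Gm12510 and Gm12511 (Klf4, 72683, 65956 and 30799 bp). Klf6 was the nearest coding gene of 3 marked lincRNAs, Gm35330, Gm47507 and Gm47514, at 136972, 22431 and 164326 bp, with widest peaks of 998, 377 and 1069 bp.

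LincRNAs that host miRNA genes had a promoter peak in 30 of 57 eligible cases (52.6%, 39.9 to 65.0%), and hosts of snoRNA genes in 9 of 31 (29.0%). Eligible lincRNAs that host neither had one in 24.6%. Besides the hosts shown above, the marked genes included H19 (Mir675), Gm49317 (Mir100, Mirlet7a-2 and Mir125b-1) and 3 hosts of miR-9 genes, C130071C03Rik, Gm3764 and Mir9-3hg. The number of annotated TSSs also moved with the share. It was 22.8% of genes with 1 eligible TSS, 31.6% with 2, 33.0% with 3 or 4 and 44.7% with 5 or more, and genes with more TSSs have more chances of a peak. Gene length differed little, with medians of 7473 bp (6843 to 8160 bp) with a peak and 8205 bp (7751 to 8814 bp) without, and both sets had a median of 3 exons in their longest transcript by exon number.

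Between chromosomes the share of eligible lincRNA genes with a promoter peak ran from 17.1% on chromosome 14 (41 of 240, 12.8 to 22.4%) to 36.9% on chromosome 17 (75 of 203, 30.6 to 43.8%). The share of coding genes with a peak within 1000 bp of a TSS was 50.0% on chromosome 14 and 63.7% on chromosome 17. Chromosome 13 carried the most lincRNA promoter peaks, 159, and also the most eligible lincRNA genes, 391, of which 29.9% had such a peak. On chromosome 17, AC163629.2 near Pim1 had 5 peaks over or beside 17 of its 20 TSSs, and Gm26901, Gm28578 and Gm36799 on other chromosomes also had 5. At the limits of the choice, peaks of 495 bp at Gm38477 and 648 bp at Snhg12 lay 999 and 998 bp from a lincRNA TSS and were kept. Peaks of 1672 bp at AC134908.3 and 861 bp at C130073E24Rik lay 1001 and 1005 bp away and were not. The peaks at C230035I16Rik and Gm47232 were kept at 3106 and 3112 bp from a coding TSS, and that at Gm37502 was left out at 2977 bp.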

How the data were processed

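The sorted MuSCs were cross-linked, immunoprecipitated with an H3K56ac antibody and sequenced with input chromatin. The authors trimmed the reads, aligned them to mm10 with bowtie with only uniquely placed reads retained, marked duplicates with Picard, called peaks with MACS2, removed blacklisted regions and merged the peaks with GenomicRanges. The deposited list gives the interval positions of that merge. Its score column is constant, it has 0 columns of values per sample, and the libraries that entered the merge are not given in the sources used here. Merging widens intervals and fuses those that overlap, so number and width describe the union.

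Every transcript of GENCODE vM21 gave a TSS. Shares have Wilson 95% intervals, differences Newcombe intervals and medians order-statistic intervals, computed with Python 3.11.15, numpy 2.4.6, pandas 2.3.3 and scipy 1.17.1. The functions were tested on simulated intervals. Members and gene lists were chosen with earlier results of these data known. The genes named are the known lincRNAs of a list, those at the 10 widest peaks, the 5 with the most peaks, those whose nearest coding gene is on the muscle stem cell list, and the peaks at the distance limits; those named only as miRNA hosts were chosen after their values were seen. Coverage of all lincRNA TSSs, the number of other peaks around, the weighting by reach and the coverage beside single TSSs were added after seeing the data. Alternatives were other distance limits, 1 TSS per gene, peak midpoints, a minimum width, joined peaks, broader gene types and stricter CpG limits.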

Additional observations from a re-analysis of the deposited data

How the results depend on the processing

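No paired analysis was possible because a list of positions holds nothing per library, and no replicate could be left out. Of 45 alternatives, 32 left the value within its interval, or within 1.5 times for the number of peaks, 13 moved it and 0 reversed it. With lincRNA TSSs within 500 bp the share of eligible genes was 22.3%, the median width 1651 bp and the log2 width ratio to other peaks 0.92. From peak midpoints these were 19.1%, 1110 bp and 0.31. Joining peaks less than 1000 bp apart gave 3038 bp and 1.33, and peaks of at least 500 bp gave a median of 1610 bp. Joining and the minimum width raise the median of any set by construction, but the cause of the higher ratio after joining was not tested. Antisense, processed, bidirectional and sense-intronic genes raised the number of peaks to 2328. With CpG limits of 0.75 and 55% the difference in CpG-rich promoters was 2.06 points. Among alternatives chosen after seeing the data, weighting other peaks by reach gave a log2 ratio of 0.27, and classes of other peaks around gave a difference at coding neighbours of 0.41 points. The differences in neighbours and CpG kept their direction, and their intervals excluded 0, under every alternative that has an interval. The means over classes of other peaks around have none. Within those classes the interval of the neighbour difference excluded 0 only with no other peak around. That of the CpG difference did so only in the sparser classes, and in the densest class the CpG difference was negative. Without depth per library, a lincRNA without a peak cannot be told from 1 below detection.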
